A study of Oryza sativa with 6 samples.

Results

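The plasma membrane intrinsic proteins (PIPs) are the aquaporins of the plant cell surface, and 10 rice PIP genes were followed here by their gene identifiers among the 39477 loci of a leaf transcriptome. They are PIP1;1 (Os02g0666200), PIP1;2 (Os04g0559700), PIP1;3 (Os02g0823100), PIP2;1 (Os07g0448800), PIP2;2 (Os02g0629200), PIP2;3 (Os04g0521100), PIP2;4 (Os07g0448100), PIP2;5 (Os07g0448400), PIP2;6 (Os04g0233400) and PIP2;7 (Os09g0541000), written from here on with the hyphen that RefSeq also uses (PIP1-1). For each of the 10 names a RefSeq gene table of another assembly places a gene of that name on the chromosome that the identifier gives. Rice with a knockout of SRL1 (srl1-KO) was compared with a control labelled non-KO, with 3 RNA-seq libraries per genotype. All came from mature leaves taken 60 days after germination, in a greenhouse with days of 30 °C and nights of 25 °C. SRL1 (SEMI-ROLLED LEAF1) is thought to be a cell surface protein held by a lipid anchor, and rice without it rolls its leaves. The comparison asks which genes differ when it is knocked out. The cultivar, the allele and the number of mutant lines were not given in the sources used here. Leaves of a single plant are mentioned in the protocol, and whether the 3 libraries of 1 genotype stand for separate plants is not said. The p-values measure the spread between libraries, which may be technical.

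PIPs form tetramers in which each subunit carries its own water pore, and they set how easily water, and for some members other small solutes, crosses the plasma membrane. Plants have a PIP1 and a PIP2 group. PIP2 proteins are the more active water channels when expressed alone in frog oocytes, whereas PIP1 proteins often need a PIP2 partner to reach the membrane. In leaves they act on the path of water from the xylem to the mesophyll, and the turgor of epidermal cells, bulliform cells included, bears on the rolling of grass leaves.

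Levels are in FPKM, the number of sequenced fragments divided by transcript length and by the mapped fragments of that library, so genes can be compared per length. The summed FPKM over all loci lay between 598611 and 628270 per library in srl1-KO and between 615519 and 627403 in non-KO, and the absolute sequencing depth is unknown. The locus written down as SRL1 is Os07g0102300, and the RefSeq table does not hold that name. Its transcript stood at 1.62, 2.22 and 1.96 FPKM in srl1-KO and at 2.50, 2.70 and 3.30 FPKM in non-KO. The genotypes did not overlap, but the difference did not pass the test (limma adjusted p = 0.107). Transcript presence does not check a knockout made by a small coding change. Leaf markers were high, and 4 of them (3 Rubisco small subunit loci and the chlorophyll a/b binding protein CAB1R) summed to 9651 to 11851 FPKM in srl1-KO and 11236 to 15410 FPKM in non-KO. Of 19556 tested loci, 5321 (27.2%) changed between the genotypes (limma on log2(FPKM + 1), Benjamini-Hochberg adjusted p under 0.05, loci averaging 1 FPKM or more). Rises made up 15.3% and falls 11.9% of the tested loci. The median log2 change of all tested loci was 0.11, so changes are also given relative to that shift.

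Of the 10 PIP genes, 7 had a mean of at least 1 FPKM and were tested. Among these PIP1-1, PIP1-3 and PIP2-1 rose in srl1-KO, 0 fell and 4 did not pass the test. Limma called 15.3% of all tested loci as rises and 11.9% as falls. All 7 log2 changes of the PIP genes were above 0. At an unadjusted p under 0.05 limma counted 4 rises and 0 falls, against 25.1% rises and 16.3% falls over all tested loci. The median log2 change of the 7 genes was 0.37, against 0.11 over all tested loci, of which 59.9% were above 0. In 4 of the 7 the genotypes did not overlap, each with srl1-KO higher, against 29.4% of all tested loci with srl1-KO higher and 47.1% in either direction. The count depends on the scaling. TMM factors, which level the trimmed mean of log ratios between libraries, brought the all-locus median to -0.01. With them PIP1-1 alone of the 7 passed, and all 7 log2 changes stayed above 0. Under these factors 9.68% of tested loci rose and 14.9% fell. Leaf RNA was measured in bulk, so more transcript per cell and more cells of an expressing type cannot be told apart.

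**Figure D1:**
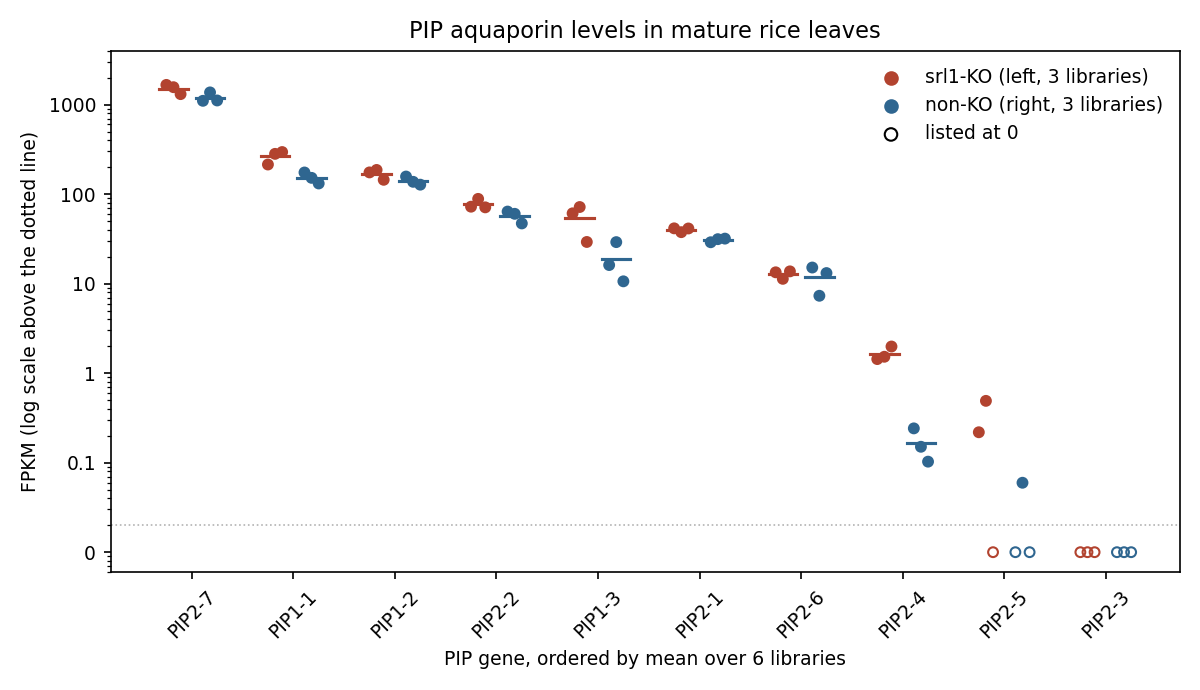
FPKM of the 10 PIP genes in each library (log axis above the dotted line, values listed at 0 below it), with srl1-KO in red on the left and non-KO in blue on the right of each gene, where bars are means of 3 libraries where all values are above 0. Levels run from 1104 to 1662 FPKM for PIP2-7 to 0 in every library for PIP2-3, and the widest gap between genotypes is that of PIP2-4, at 1.44 to 1.99 FPKM in srl1-KO and 0.103 to 0.242 FPKM in non-KO.

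Among the PIP1 genes, PIP1-1 was the most abundant and rose. PIP1-1, also called RWC1, had 214, 282 and 295 FPKM in srl1-KO replicates 1, 2 and 3, against 175, 152 and 132 FPKM in non-KO replicates 1, 2 and 3. Every srl1-KO library stood above every non-KO library. The means were 264 ± 43.4 FPKM in srl1-KO and 153 ± 21.5 FPKM in non-KO (SD, n = 3 each), a 1.73-fold difference. The log2 change was 0.78 ± 0.17 (SE, limma adjusted p = 0.0184), or 0.67 above the median of all tested loci, and 9.19% of tested loci had a log2 change at least as high. It passed with TMM factors as well (log2 change 0.64, limma adjusted p = 0.0352). Leaving out srl1-KO replicate 2 (limma adjusted p = 0.0728) or non-KO replicate 2 (adjusted p = 0.0513) ended the call.

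PIP1-3 showed the largest log2 change of the 7 tested members and also the widest spread. This gene, known as RWC3, has been studied in rice under water deficit. Its level was 61.1, 71.8 and 29.2 FPKM in the srl1-KO libraries, against 16.1, 29.1 and 10.6 FPKM in the non-KO libraries. The genotypes did not overlap, but srl1-KO replicate 3 and non-KO replicate 2 were nearly equal. Mean levels were 54.0 ± 22.1 FPKM in srl1-KO and 18.6 ± 9.49 FPKM in non-KO (SD, n = 3 each), a 2.9-fold difference with a coefficient of variation of 41.0% in srl1-KO and 51.0% in non-KO. The estimated log2 change, 1.5 ± 0.44 (SE, limma adjusted p = 0.0467), had a 95% interval from 0.45 to 2.56. The call sits at the edge of the threshold: it was lost with TMM factors (adjusted p = 0.0700), with no filter on level (adjusted p = 0.0852) and without srl1-KO replicate 1, srl1-KO replicate 2, non-KO replicate 1 or non-KO replicate 3 (adjusted p from 0.111 to 0.141).

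Within each genotype PIP1-3 was lowest in replicate 3, and so were PIP1-2 and PIP2-2. The replicate numbers are not used as pairs between the genotypes. The markers of cells with secondary walls, CESA4, CESA7 and CESA9, were highest in replicate 3 of each genotype. Their summed level was 2.82 to 8.07 FPKM in srl1-KO and 2.05 to 18.4 FPKM in non-KO, with both upper ends in replicate 3. None of the 3 markers passed the test between genotypes (limma, with 0 at an unadjusted p under 0.05), and their part in the level of PIP1-3 was not tested. The tested loci whose centred log2(FPKM + 1) profile over the 6 libraries lay nearest to that of PIP1-3 were Os03g0664800 and Os01g0915900, at Euclidean distances of 0.62 and 0.66, against a median of 2.26 over all tested loci. Neither the file nor the RefSeq table says what they encode.

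The third PIP1 gene, PIP1-2, was not called. It had 175, 186 and 145 FPKM in srl1-KO libraries and 157, 137 and 128 FPKM in non-KO libraries, and the genotypes overlapped. Means were 169 ± 21.6 and 141 ± 15.1 FPKM in srl1-KO and non-KO (SD, n = 3 each). Its log2 change of 0.26 ± 0.14 (SE) did not pass the test (limma adjusted p = 0.218), and the 95% interval from -0.08 to 0.60 covers both the median of all loci and a moderate rise. The summed level of the 3 PIP1 genes was 450, 540 and 469 FPKM in the srl1-KO libraries, against 348, 318 and 270 FPKM in the non-KO libraries, so the sums did not overlap.

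The PIP2 group was dominated by a single gene, PIP2-7, which has been studied in rice under chilling. PIP2-7 reached 1662, 1566 and 1311 FPKM in the srl1-KO libraries, against 1104, 1370.1 and 1113 FPKM in the non-KO libraries. The lowest srl1-KO library lay below the highest non-KO library. It ranked between place 30 and place 44 of all loci in the srl1-KO libraries and between place 34 and place 52 in the non-KO libraries. Mean levels were 1513 ± 181 FPKM and 1196 ± 151 FPKM in srl1-KO and non-KO (SD, n = 3 each), a 1.27-fold difference that did not pass the test (log2 change 0.34 ± 0.17 SE, limma adjusted p = 0.186). The 95% interval, from -0.08 to 0.75, leaves room for a rise of the size seen in PIP2-1 and for no change.

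PIP2-1, a water channel known from rice roots, was the third member that rose, by a small and even amount. Levels of PIP2-1 were 41.5, 37.6 and 41.4 FPKM in the srl1-KO libraries, against 29.0, 31.4 and 31.9 FPKM in the non-KO libraries, with no overlap. Its mean was 40.2 ± 2.20 FPKM in srl1-KO and 30.8 ± 1.53 FPKM in non-KO (SD, n = 3 each), a 1.31-fold difference with a coefficient of variation near 5% (5.48% in srl1-KO and 4.96% in non-KO), the smallest of the members above 1 FPKM. The log2 change was 0.37 ± 0.10 (SE, limma adjusted p = 0.0312), or 0.26 above the median of all loci. This call did not survive TMM factors (log2 change 0.24, adjusted p = 0.123), and leaving out any library other than non-KO replicate 3 ended it (adjusted p from 0.0670 to 0.104).

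PIP2-2 and PIP2-6 did not pass the test. PIP2-2 had 72.4, 88.6 and 71.2 FPKM in srl1-KO libraries and 63.9, 60.3 and 47.1 FPKM in non-KO libraries. The genotypes did not overlap, and the log2 change was 0.44 ± 0.15 (SE, limma adjusted p = 0.0789). With quantile normalization, under which 14.3% of tested loci rose, PIP2-2 passed (log2 change 0.57, limma adjusted p = 0.0305). PIP2-6, which in rice has also been studied as a channel for arsenite, had 13.4, 11.3 and 13.7 FPKM in srl1-KO libraries and 15.1, 7.32 and 13.1 FPKM in non-KO libraries. All srl1-KO values of PIP2-6 lay inside the non-KO range. The log2 change was 0.15 ± 0.25 (SE, limma adjusted p = 0.681), and without non-KO replicate 2 it turned to -0.13, so its direction is not determined.

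**Figure D2:**
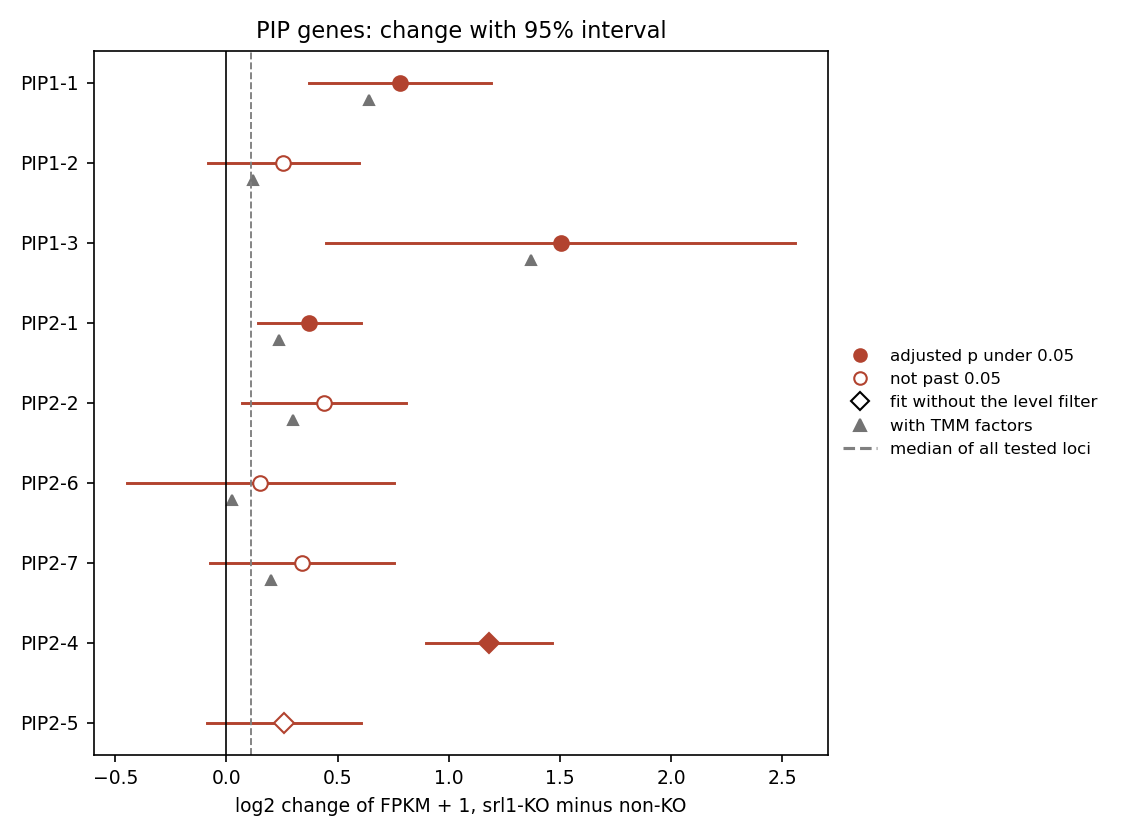
Log2 change of FPKM + 1, srl1-KO minus non-KO, with its 95% interval for the 7 tested PIP genes (circles) and for PIP2-4 and PIP2-5 from a fit without the level filter (diamonds), where filled symbols have an adjusted p under 0.05, triangles give the estimate with TMM factors for the 7 tested genes, and the dashed line is the median of all tested loci at 0.11. All estimates lie above 0, and PIP1-3 has the widest interval, from 0.45 to 2.56.

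The other 3 members, PIP2-3, PIP2-4 and PIP2-5, are known in rice mainly from roots, and all had a mean under 1 FPKM in these leaves. PIP2-3 was listed at 0 in each of the 6 libraries. PIP2-5 was at 0.219, 0.491 and 0 FPKM in srl1-KO libraries and at 0, 0.0597 and 0 FPKM in non-KO libraries, and these levels allow no statement on a difference (two-sided exact permutation p = 0.4).

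PIP2-4 was low in both genotypes, and every srl1-KO library stood above every non-KO library. How many fragments lie behind such low values is unknown. Its level was 1.44, 1.53 and 1.99 FPKM in the srl1-KO libraries, against 0.242, 0.151 and 0.103 FPKM in the non-KO libraries. The lowest srl1-KO value lay several times above the highest non-KO value. Means were 1.65 ± 0.294 FPKM in srl1-KO and 0.165 ± 0.0706 FPKM in non-KO (SD, n = 3 each), a ratio of 10 between low levels. The gene fell under the level filter, so it was first tested in a fit without that filter. That fit covered 32890 loci, of which 14.9% were called (2619 rises and 2281 falls). There the log2 change of PIP2-4 was 1.18 ± 0.12 (SE, limma adjusted p = 0.00293), a scale on which the added 1 FPKM shrinks the change of low genes. With a pseudocount of 0.1 FPKM in place of 1 it was 2.74 (limma adjusted p = 0.00457), and the call held without any 1 of the 6 libraries (adjusted p from 0.00636 to 0.0163). By the two-sided exact permutation test p was 0.1, which is the lowest value possible with 3 libraries in each genotype.

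PIP2-4, PIP2-5 and PIP2-1 lie close together on chromosome 7. In the order of the identifiers, Os07g0448200 and Os07g0448300 stand between PIP2-4 and PIP2-5, and Os07g0448600 between PIP2-5 and PIP2-1. In the RefSeq gene table of the assembly ASM3414082v1, PIP2-4 and PIP2-5 are separated by 1 gene and PIP2-5 and PIP2-1 by 0 genes. Although the genes lie close together, their leaf levels were far apart. In srl1-KO they were 1.65 FPKM for PIP2-4, 0.236 FPKM for PIP2-5 and 40.2 FPKM for PIP2-1 (means of 3 libraries). The loci that flank the group in the order of the identifiers did not pass the test. Os07g0447800, next to PIP2-4, had 27.6 ± 0.603 FPKM in srl1-KO and 25.7 ± 1.11 FPKM in non-KO (SD, n = 3 each, limma adjusted p = 0.446). Os07g0449100, next to PIP2-1, had 12.2 ± 0.949 FPKM in srl1-KO and 10.5 ± 0.635 FPKM in non-KO (SD, n = 3 each, limma adjusted p = 0.204). PIP genes resemble each other in their coding sequence, and the sources used here do not say how fragments that match several of them were counted. The values of close relatives such as PIP2-4 and PIP2-5 are uncertain for that reason.

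The order of the levels was much alike in both genotypes. In srl1-KO it ran PIP2-7, PIP1-1, PIP1-2, PIP2-2, PIP1-3, PIP2-1, PIP2-6, PIP2-4 and PIP2-5, and in non-KO PIP2-1 and PIP1-3 changed places. PIP2-7 stood 5.73-fold above PIP1-1 in srl1-KO and 7.83-fold above it in non-KO. PIP1-1 lay above PIP1-2 in every library of both genotypes. In srl1-KO the ranges of the 2 genes did not overlap and the means differed 1.56-fold. In non-KO the ranges overlapped and the means differed 1.09-fold. The other neighbours whose libraries overlapped were PIP2-2 with PIP1-3 and PIP1-3 with PIP2-1 in srl1-KO, and PIP2-1 with PIP1-3 and PIP1-3 with PIP2-6 in non-KO. All remaining neighbours in the order had ranges that did not overlap.

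**Figure D3:**
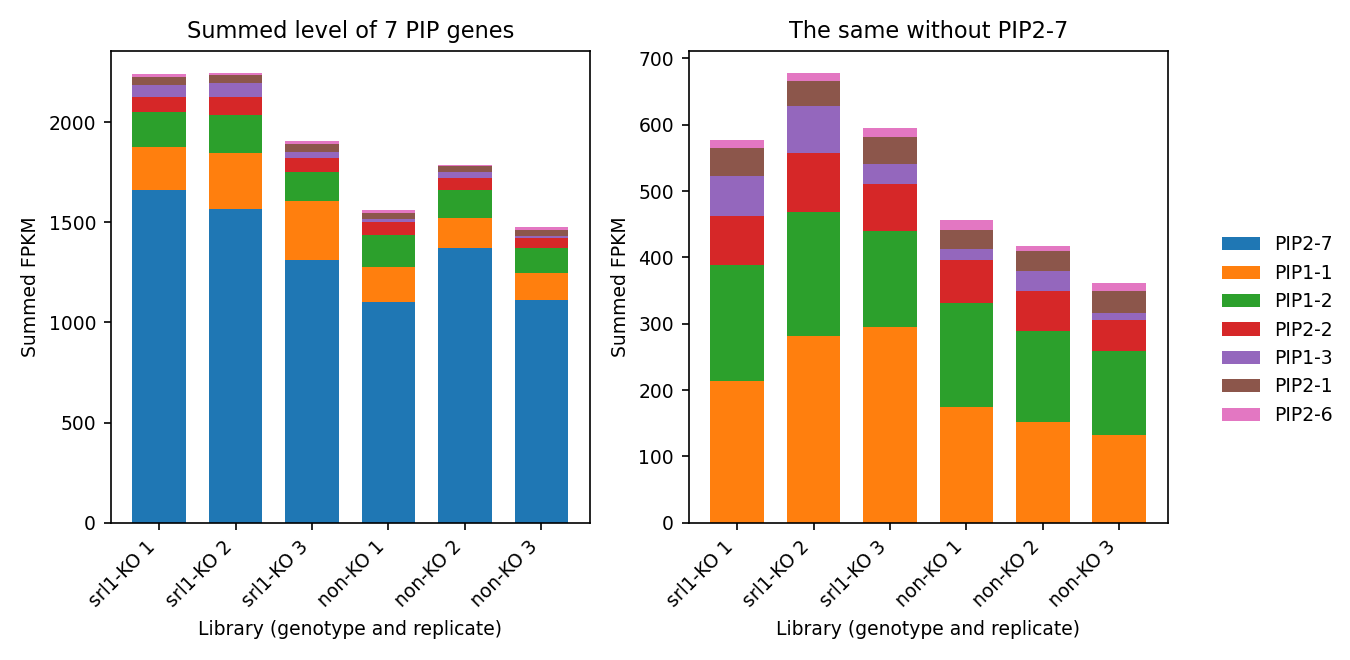
Summed FPKM of the 7 PIP genes with a mean above 1 FPKM in each library, srl1-KO libraries left and non-KO libraries right, stacked by gene, and the right panel leaves out PIP2-7 and has its own scale. Over all 10 genes the sums are 1908 to 2246 FPKM in srl1-KO and 1475 to 1788 FPKM in non-KO, and PIP2-7 holds most of each bar in the left panel.

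Summed over the 10 genes, PIP transcript was 2241, 2246 and 1908 FPKM in the srl1-KO libraries, against 1560, 1788 and 1475 FPKM in the non-KO libraries. Every srl1-KO sum lay above every non-KO sum. The mean was 2132 ± 194 FPKM in srl1-KO and 1608 ± 162 FPKM in non-KO (SD, n = 3 each), a ratio of 1.33. The family made up 0.346% ± 0.0353 of the summed FPKM of all loci in srl1-KO and 0.259% ± 0.0261 in non-KO. After scaling with TMM factors the sums overlapped, at 1797 to 2182 FPKM in srl1-KO and 1527 to 1890 FPKM in non-KO, with a ratio of means of 1.20. Without PIP2-7 the other members summed to 619 ± 53.4 FPKM in srl1-KO and 412 ± 47.4 FPKM in non-KO, a ratio of 1.5 between the means. No test was made of these sums.

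Shares of the family total do not depend on the scaling of a library. PIP2-7 held 70.9% ± 2.90 of the summed PIP FPKM in srl1-KO and 74.3% ± 3.12 in non-KO (SD, n = 3 each), with overlap. PIP1-3 held 2.72%, 3.20% and 1.53% in the srl1-KO libraries, against 1.03%, 1.63% and 0.719% in the non-KO libraries, so that srl1-KO replicate 3 fell inside the non-KO range. The share of PIP1-1 was 9.57%, 12.6% and 15.5% in the srl1-KO libraries, against 11.2%, 8.50% and 8.92% in the non-KO libraries, also with overlap. The 3 PIP1 genes together held 22.9% ± 2.45 in srl1-KO and 19.5% ± 2.47 in non-KO, and the libraries of the genotypes overlapped. PIP2-4 alone had shares without overlap among the 10 genes, at 0.0641%, 0.0679% and 0.104% in srl1-KO and 0.0155%, 0.00842% and 0.00696% in non-KO. PIP2-1 kept nearly the same share, 1.90% ± 0.249 in srl1-KO and 1.93% ± 0.209 in non-KO.

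Among the aquaporins outside the PIP group, 4 rose and 0 were called lower. Plants place tonoplast intrinsic proteins (TIPs) mainly in the vacuolar membrane. NIPs carry small solutes such as silicic acid, some of them at the plasma membrane, and SIPs lie in internal membranes. With PIP2-8 (Os03g0861300), which was listed at 0 in all 6 libraries, 32 aquaporin names were written down and 18 of them had a mean of at least 1 FPKM. NIP1-1 was 1 of the 18 and passed that filter only through srl1-KO. Across these 18, limma called 7 rises and 0 falls, beside 15.3% rises and 11.9% falls over all tested loci. At an unadjusted p under 0.05 there were 9 rises and 1 fall among the 18, beside 25.1% and 16.3% of all tested loci. Their median log2 change was 0.36, against 0.11 over all tested loci. With TMM factors 5 of 18 rose and 0 fell, beside 9.68% rises and 14.9% falls over all tested loci, with a median log2 change of 0.22 against -0.01 over all loci.

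**Figure D4:**
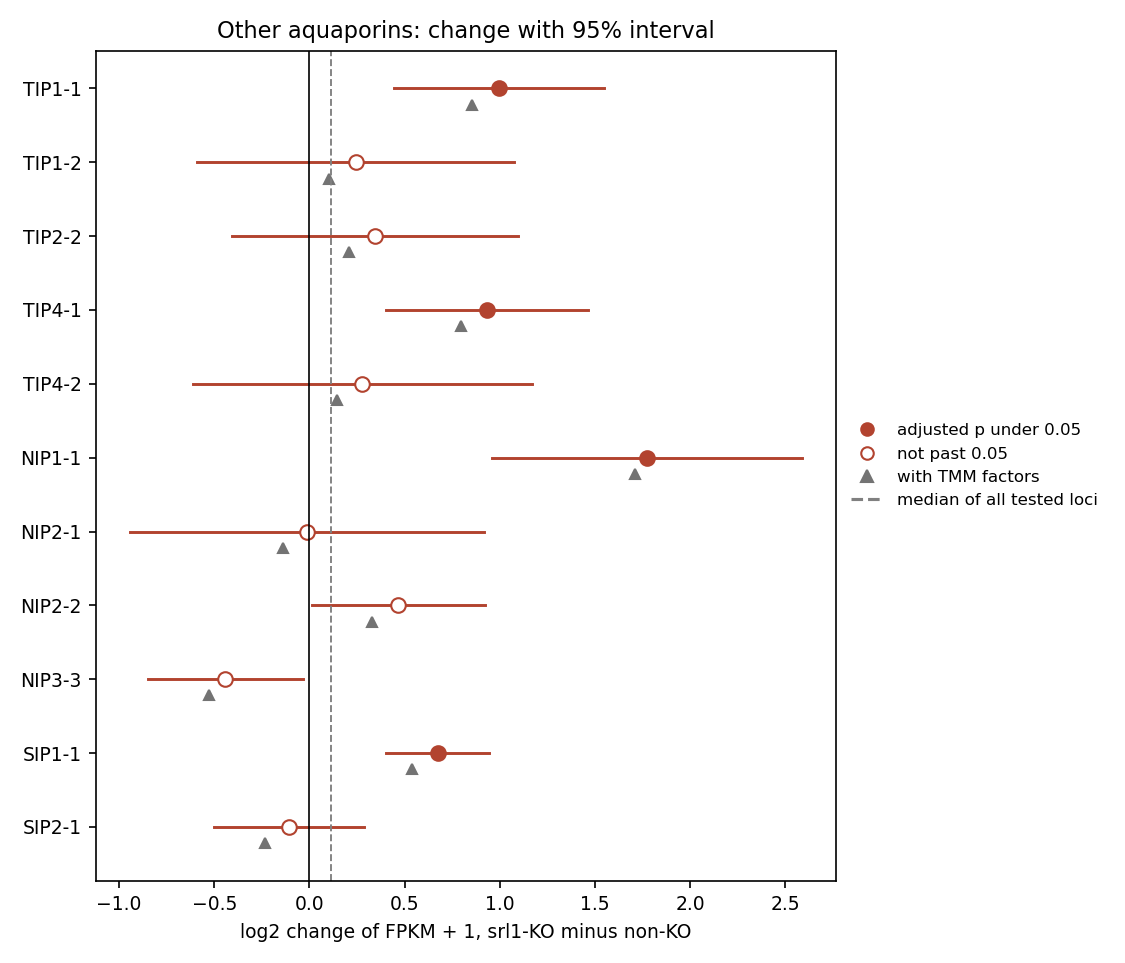
Log2 change of FPKM + 1, srl1-KO minus non-KO, with its 95% interval for the 11 tested TIP, NIP and SIP genes, where filled circles have an adjusted p under 0.05, triangles give the estimate with TMM factors, and the dashed line is the median of all tested loci at 0.11. TIP1-1, TIP4-1, NIP1-1 and SIP1-1 are filled, and NIP3-3 has the lowest estimate, at -0.44.

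Of 10 TIP genes, 5 were tested, of which TIP1-1 and TIP4-1 rose, 0 fell and 3 did not pass (limma, with 2 rises and 0 falls at an unadjusted p under 0.05). Over all tested loci 15.3% rose and 11.9% fell, or 25.1% and 16.3% at the unadjusted threshold. TIP4-1 (Os05g0231700) was the most abundant, with 449, 527 and 476 FPKM in the srl1-KO libraries, against 273, 182 and 324 FPKM in the non-KO libraries. Its log2 change was 0.93 ± 0.22 (SE, limma adjusted p = 0.0240). TIP1-1 (Os03g0146100) had 128, 154 and 150 FPKM in srl1-KO libraries and 93.9, 77.5 and 50.4 FPKM in non-KO libraries, and rose with a log2 change of 0.99 ± 0.23 (limma SE, adjusted p = 0.0219). In both genes every srl1-KO library lay above every non-KO library, and both passed with TMM factors (adjusted p = 0.0394 for TIP4-1 and 0.0407 for TIP1-1). Both calls were lost without srl1-KO replicate 2 (adjusted p = 0.0860 for TIP4-1 and 0.0786 for TIP1-1) and without srl1-KO replicate 3 (adjusted p = 0.0533 for TIP4-1 and 0.0551 for TIP1-1). That of TIP4-1 was also lost without srl1-KO replicate 1 (adjusted p = 0.0540), without non-KO replicate 1 (adjusted p = 0.0586) and, narrowly, with no filter on level (adjusted p = 0.0502).

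Of 11 NIP and SIP genes, 6 were tested, of which NIP1-1 and SIP1-1 rose, 0 fell and 4 did not pass (limma, with 3 rises and 1 fall at an unadjusted p under 0.05). The shares over all tested loci were 15.3% and 11.9%, or 25.1% and 16.3% unadjusted. NIP1-1 (Os02g0232900) was low, at 2.57, 6.36 and 2.02 FPKM in srl1-KO libraries and 0.130, 0.326 and 0.323 FPKM in non-KO libraries. Without its srl1-KO values it would not have passed the level filter. Its log2 change was 1.77 ± 0.34 (SE, limma adjusted p = 0.0114). SIP1-1 (Os01g0182200) had 44.2, 36.6 and 41.9 FPKM in srl1-KO libraries, against 27.3, 23.9 and 24.5 FPKM in non-KO libraries, and rose with a log2 change of 0.67 ± 0.11 (limma SE, adjusted p = 0.00707). Both calls held in each setting in which the gene was tested. NIP2-2 (Os06g0228200), the silicon channel Lsi6 and the most abundant of the group, had 73.8 ± 11.9 FPKM in srl1-KO and 53.4 ± 11.7 FPKM in non-KO (SD, n = 3 each, limma adjusted p = 0.113). NIP2-1 (Os02g0745100), the silicon channel Lsi1 known mainly from roots, was at 7.26 to 15.3 FPKM in srl1-KO and 7 to 18 FPKM in non-KO.

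Markers of the phloem and of dividing cells overlapped between the genotypes. SUT1, a sucrose transporter of the phloem, was at 41.1 to 61.8 FPKM in srl1-KO and 38.3 to 47.7 FPKM in non-KO, and SWEET11 was at or under 0.122 FPKM in all 6 libraries. PCNA and CDKB2-1, genes of dividing cells, summed to 11.4 to 12.9 FPKM in srl1-KO and 8.62 to 12.2 FPKM in non-KO. Of 5 loci written down as mesophyll markers, 1 Rubisco small subunit locus fell without overlap (Os12g0291100, limma adjusted p = 0.0427). The other 4 overlapped and were not called, among them Os11g0707000, written down as Rubisco activase, a name that the reference table does not hold for it. The part of cell composition in the PIP levels was not tested. Of 4 loci written down as plasma membrane proton pumps, whose names the reference table does not hold, 1 rose, 1 fell and 2 did not pass. Over all tested loci 15.3% rose and 11.9% fell.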

How the data were processed

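The deposited table holds FPKM values made by the authors, 1 column per library, with no pooling. HISAT2, DESeq2 and the build IRGSP-1.0 appear in the submitters' processing notes, with no roles or versions. The FPKM tool, annotation and strand use were not given in the sources used here. The FPKM unit keeps no counts. Among loci under 0.1 FPKM, 3.46% to 4.78% shared 1 narrow bin of the ratio to srl1-KO replicate 1, which placed the other libraries at 0.886 to 0.949 times its depth. Absolute depth is unknown, so no counting interval is given. The file does not pair identifiers with names. Of 32 aquaporin names, 29 lie on the same chromosome in the RefSeq table, and all 43 pairs on 1 chromosome are in the same order there. That table holds 1 identifier of the file.

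From the FPKM values, log2(FPKM + 1) was fitted with limma 3.58.1 in R 4.3.3 (lmFit, eBayes with trend, two-sided) for loci averaging 1 FPKM or more, with Benjamini-Hochberg adjustment over all of them. Fold values are ratios of mean FPKM. The members, gene lists and naming rule (all members; called genes and the most abundant gene of each list, the 2 loci nearest to the member with the largest called change) were chosen with earlier results of these data known. In simulated data of 19556 loci, 100 loci carried a log2 change of size 1 and 100 a change of size 2. The fit recovered 48% of the former and 95% of the latter. The changed share was far smaller there than the 27.2% called in these data, so recovery here may differ. Alternatives were a pseudocount of 0.1, no filter, a mean of 5 FPKM or more, TMM factors (30% trim of ratios, 5% of levels), quantile normalization, equal sums, a replicate block and leaving out each library. Combinations with no filter for PIP2-4 were added after the data were seen. No sequences are shown, since no table of them was used here.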

Additional observations from a re-analysis of the deposited data

How the results depend on the processing

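The number of called loci, 5321, stayed within 1.5 times in each setting that kept all 6 libraries, from 3649 with the replicate block to 5332 with equal sums, and was 2959 to 4638 when 1 library was left out. Rises were 56.3% of calls with the values as deposited and 39.3% with TMM factors (1893 rises and 2918 falls). The number of PIP genes called, 3, became 1 with TMM factors (PIP1-1) and 1 with the replicate block (PIP1-3), and was 0 to 3 when 1 library was left out, lowest without srl1-KO replicate 2. In each of the 3 fits without a non-KO library this count includes PIP2-4, which then averaged over 1 FPKM through its srl1-KO level, and PIP1-1, PIP1-3 and PIP2-1 alone gave 0 to 2 calls over the 6 fits. It was 3 with no filter, where PIP2-4 was tested and PIP1-3 missed the threshold, and 4 with quantile normalization. No PIP gene was called lower in any setting run. The replicate numbers are not used as pairs: libraries with the same number deviated from the genotype mean with correlations of -0.05, 0.05 and 0.02, and 0 of 6 libraries correlated best with its own number. With the block PIP1-3 had an adjusted p of 0.00854, PIP1-1 of 0.0647, PIP2-1 of 0.0898 and PIP2-4, without the filter, of 0.0309, and the calls of TIP1-1 (adjusted p = 0.0530) and TIP4-1 (adjusted p = 0.0592) were lost. Without 1 library the log2 change of PIP2-6 ran from -0.13 to 0.34. Every other PIP gene tested kept its direction in all settings. The genotype difference of the summed PIP level, 524 FPKM, was 344 FPKM with TMM factors. That of the PIP1 share, 3.44 percentage points, cannot change with TMM factors or equal sums. It ran from 2.60 to 4.86 percentage points when 1 library was left out. The causes of these differences between settings were not tested. Fits with the block or with fewer libraries also have fewer residual degrees of freedom.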
